A study of Homo sapiens with 3 samples.

Results

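MIR335 is a microRNA hairpin that gives hsa-miR-335-5p and hsa-miR-335-3p, the mature forms cut from its 2 arms. Both arms are described here across the 3 libraries of the study, 2 of the 2588 human mature miRNAs listed in the deposited counts. They were chosen from values of these same libraries, because the arms part after 5 min of plasma, so the arm values at 5 min are a description of why the hairpin was picked and support nothing further. The libraries came from SK-MEL-2, a melanoma line of human origin and long in use, all at Day 2. The control culture had no treatment, and the others received nonthermal plasma, ionised gas that stays cool enough for cells, from a jet for 3 min or for 5 min. All 3 were grown in RPMI-1640 with serum and antibiotics, and RNA of the treated cells was taken after 2 more days of culture. Each group was 1 library, so there was no replicate and no significance test, and every interval given is a 95% interval of counting error only.

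A miRNA hairpin is cut by Drosha in the nucleus and by Dicer in the cytoplasm into a short duplex of its 5p and 3p arms. One strand of the duplex is kept by an Argonaute protein as the guide and the other is mostly lost, and bases 2 to 8 of the guide, the seed, find the target mRNAs. Both arms come from the same precursor, so the balance between them depends on which strand is kept and how long each one lasts. MIR335 lies in an intron of MEST, an imprinted gene expressed from the paternal copy. miR-335-5p is best known as a suppressor of metastasis in breast cancer, where it represses SOX4 and tenascin C.

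The sequences of the arms are shown first, since they differ in seed and would therefore find different targets. They are given 5′ to 3′ from RefSeq (GRCh38.p14), with the seed in capitals.
miR-335-5p: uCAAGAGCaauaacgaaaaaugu
miR-335-3p: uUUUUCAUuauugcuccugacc
Both members matched RefSeq by name. The 5p arm has 23 bases at chr7:130496126-130496148 and the 3p arm 22 bases at chr7:130496162-130496183, both on the plus strand. In each case the seed was found in 1 of 2370 mature miRNA names compared, the arm itself, and 0 other mature miRNAs lay within 3 mismatches. No near copy that could share reads with either arm was thus found among these RefSeq sequences.

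The hairpin of 94 bases (chr7:130496111-130496204, plus strand) is printed with both arms in capitals, to show how they face each other across the loop.
MIR335 hairpin: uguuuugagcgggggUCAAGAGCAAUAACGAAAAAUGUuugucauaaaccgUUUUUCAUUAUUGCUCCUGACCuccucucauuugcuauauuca
In the GENCODE 29 annotation the hairpin was intronic in 13 of the 13 MEST transcripts that span it (MEST, chromosome 7, 130486171 to 130506465). It also overlapped an exon of AC007938.2, an antisense transcript on the minus strand (130495794 to 130498427). No other RefSeq miRNA hairpin overlapped it. Whether the counting used strand is not given in the sources used here.

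In a predicted fold of the hairpin, 18 bases of each arm paired with the other arm. The first 5 bases of the 3p arm were held by 5 A-U pairs and no G-C pair. The first 5 bases of the 5p arm were held by 2 G-C pairs and 2 A-U pairs, with 1 base unpaired. It is textbook knowledge that the strand whose 5′ end is held more weakly tends to be kept; the fold is a prediction and is given as a description of the duplex. Both arms begin with U and both are poor in G and C, with 30.4% in the 5p arm and 36.4% in the 3p arm against a median of 47.6% over 206 miRNAs with a sequence.

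Depth differed between the libraries. The control had 1045482 counts in total, the 3 min library 966943 and the 5 min library 615645, which is 58.9% of the control's total. The shallowest library also listed the most miRNAs with a count, 708 against 639 in the control and 663 after 3 min. Levels below are CPM, counts scaled by library size, after TMM scaling over 231 miRNAs whose mean count reached 20, a minimum that both arms passed. Adapter ligation favours some RNA ends over others, so the share of an arm in a library is not its molar share. In a bulk culture, fewer cells that make a miRNA and less of it per cell cannot be told apart.

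The 3p arm was the major arm in every library. Its counts were 651, 620 and 332 in the control, 3 min and 5 min libraries. The scaled level was 623 CPM (576 to 672) in the control, 647 CPM (597 to 700.2) in the 3 min library and 535 CPM (479 to 596) in the 5 min library. The 5 min library was the lowest of the 3, and its interval overlapped the control's. Among all listed miRNAs the 3p arm ranked 78, 76 and 88 in the same order.

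The 5p arm, the strand known for its targets in metastasis, had 90, 92 and 97 counts. Scaled to the depth of each library, its level was 86.1 CPM (69.2 to 106) in the control, 96.0 CPM (77.4 to 118) with 3 min of plasma and 156 CPM (127 to 191) with 5 min. The 5 min interval lay above both others, which overlapped. Its rank among all listed miRNAs was 141, 138 and 120. The raw count of this arm was nearly level across libraries while the depth was not, so the higher level at 5 min is a count that did not go down with the library. Of the 231 miRNAs, 29 (12.6%) had at least as many raw counts after 5 min as in the control.

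**Figure D1:**
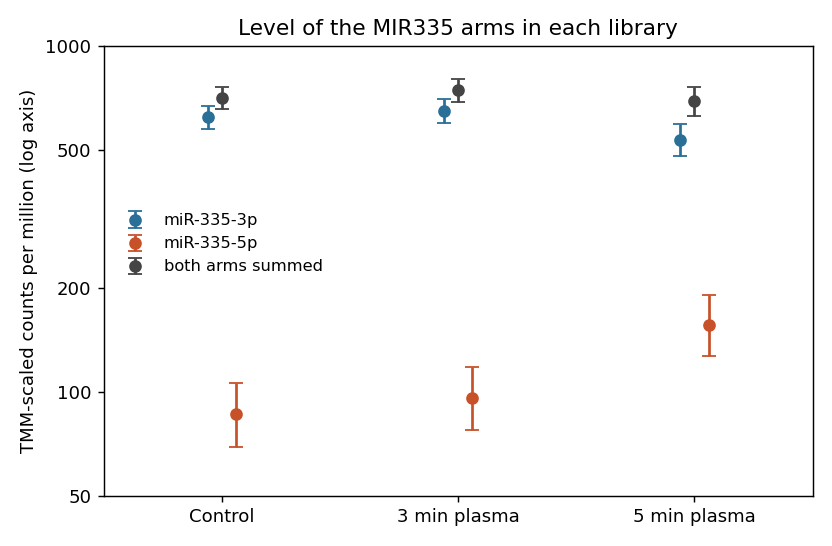
Level of each MIR335 arm and of both summed (TMM-scaled CPM, log axis) in the 3 libraries; points are single libraries and bars are exact 95% Poisson intervals. The 5p arm stands at 86.1, 96.0 and 156, the 3p arm at 623, 647 and 535, and the sum stays between 691 and 743.

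After 5 min of plasma the 5p arm was 1.82-fold above control (1.35 to 2.45) and the 3p arm 1.16-fold below it (1.02 to 1.33). The difference from control was 70.2 CPM for the 5p arm and -87.6 CPM for the 3p arm. Both arms summed had 741, 712 and 429 counts. This was 709 CPM (659 to 762) in the control, 743 CPM (690 to 799.8) in the 3 min library and 691 CPM (628 to 760.0) in the 5 min library. The sum after 5 min was 0.976 of control, with an interval of 0.864 to 1.10 that included 1. With this scaling the level of the hairpin as a whole thus differed from control by less than counting error, while its arms lay on opposite sides of 1. The statement on the sum depends on the scaling: with TMM over all listed miRNAs it was 0.867 of control (0.768 to 0.978), and with DESeq2 size factors over all miRNAs counted in every library 0.844 (0.748 to 0.952), both below 1. The 5p interval lay above 1 and the 3p interval below 1 under all 6 scalings tried.

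After 3 min neither arm was distinguishable from control by counting error. The ratio to control was 1.12 for the 5p arm (0.825 to 1.51), 1.04 for the 3p arm (0.930 to 1.16) and 1.05 for the sum (0.945 to 1.16). Set against the 3 min library in place of the control, the 5 min library had a 5p arm 1.63-fold higher (1.21 to 2.19), a 3p arm 1.21-fold lower (1.06 to 1.39) and a sum at 0.930 (0.823 to 1.05). This pair shares the 5 min library with the comparison that chose the hairpin and is not separate support for it.

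Beside these ratios stands the behaviour of all miRNAs. At 1.5-fold after 5 min, 1 of the 2 arms, miR-335-5p, was higher and 0 were lower; over all 231 miRNAs 40 (17.3%) were higher and 27 (11.7%) lower. The median log2 ratio of all was 0.05 with an SD across miRNAs of 0.88. That SD is widened by entries such as miR-3176 at 29.9-fold above control (11.2 to 113) and miR-1246 at 16.4-fold (12.7 to 21.3). Beside it the log2 ratio was 0.86 (0.43 to 1.29) for the 5p arm and -0.22 (-0.41 to -0.03) for the 3p arm. The 5p arm was 24th from the top of the 231 and the 3p arm 68th from the bottom. After 3 min 0 of the 2 arms were past 1.5-fold, with 6.93% of all miRNAs higher and 5.19% lower. Neither arm alone therefore stood outside what many miRNAs did after 5 min.

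Abundance was read beside this comparison. Of the 67 miRNAs with a mean of 20 to 50 counts, 15 were at least 1.5-fold higher after 5 min and 11 lower, with a median log2 ratio of 0.03. Of the 55 miRNAs with a mean of 50 to 200 counts, the range that holds miR-335-5p (mean 93.0), 13 (23.6%) were at least 1.5-fold higher after 5 min, 8 were at least 1.5-fold lower and the median log2 ratio was 0.20. Of the 51 with 200 to 1000 counts, where miR-335-3p lies (mean 534), 10 were higher, 3 lower and the median was 0.12. Among the 58 miRNAs with at least 1000 counts, 2 were higher, 5 lower and the median was -0.11. The most abundant miRNAs thus had the lowest median in the shallow 5 min library and the range of the 5p arm the highest, and the part of depth and abundance in the level of the 5p arm was not tested.

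The balance of the arms does not depend on scaling, because both arms are counted in the same library. miR-335-5p made up 12.1% of the MIR335 counts in the control (exact binomial interval 9.88 to 14.7), 12.9% in the 3 min library (10.5 to 15.6) and 22.6% in the 5 min library (18.7 to 26.9). The control and 3 min intervals overlapped almost fully and the 5 min interval lay above both. Put the other way, each count of 5p stood beside 7.23 counts of 3p in the control, 6.74 with 3 min of plasma and 3.42 with 5 min. The 3p arm remained the major arm throughout.

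**Figure D2:**
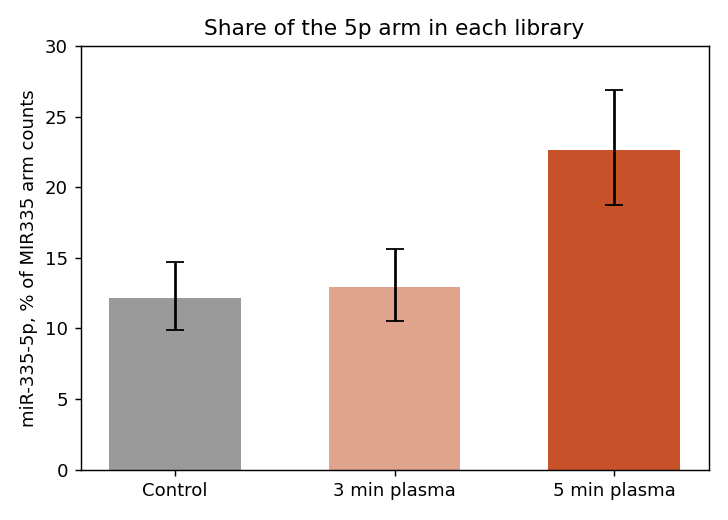
Share of miR-335-5p in the summed counts of both MIR335 arms (percent) in the 3 libraries; bars are single libraries with exact 95% binomial intervals. The control and 3 min libraries stand at 12.1% and 12.9%, and the 5 min library at 22.6%.

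At the control's share, the 429 MIR335 counts of the 5 min library would have held 52.1 counts of 5p, and 97 were found. The ratio of 5p to 3p was 2.11-fold above control after 5 min, with an exact conditional interval of 1.52 to 2.94. On the log2 scale this was 1.08 (0.61 to 1.55). After 3 min it was 1.07-fold (0.777 to 1.48), where 86.5 counts of 5p corresponded to the control's share and 92 were found. Against the 3 min library the 5 min ratio was 1.97-fold higher (1.42 to 2.73).

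How often arms part in these libraries was read from all hairpins measured on both arms. Of 838 pairs of arms listed by name, 49 had a mean of at least 20 counts on each arm, and of these RefSeq gave 38 with each arm from 1 hairpin and 4 with an arm that several hairpins make, while 7 were not matched. The ratio of 5p to 3p was at least 1.5-fold higher after 5 min than in the control in 9 of the 49 hairpins (18.4%) and at least 1.5-fold lower in 7 (14.3%). At 2-fold, 3 hairpins (6.12%), MIR335 among them, were higher and 2 (4.08%) were lower. MIR335 had the second highest value of the 49, and the fourth largest in either direction. After 3 min, 3 hairpins (6.12%) were at least 1.5-fold higher and 1 (2.04%) lower, and MIR335, at 1.07-fold, was 19th from the top.

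The median log2 change over the 49 hairpins was 0.03 after 5 min, with an SD across hairpins of 0.58, and -0.06 with an SD of 0.36 after 3 min. The counting interval lay above 1 in 8 hairpins (16.3%) and below 1 in 11 (22.4%) after 5 min. After 3 min the counts were 4 (8.16%) and 8 (16.3%). Arms thus differed in balance more widely after 5 min than after 3 min across the whole set, in both directions. MIR335 was 1 of the 8 with an interval above 1 after 5 min. The 5 min library was the shallowest, so counting error alone spreads its values more, and the part of depth in this was not tested. Against the 3 min library, 4 hairpins (8.16%) were at least 1.5-fold higher after 5 min and 5 (10.2%) lower, and the interval lay above 1 in 10 (20.4%), MIR335 among them, and below 1 in 7 (14.3%).

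**Figure D3:**
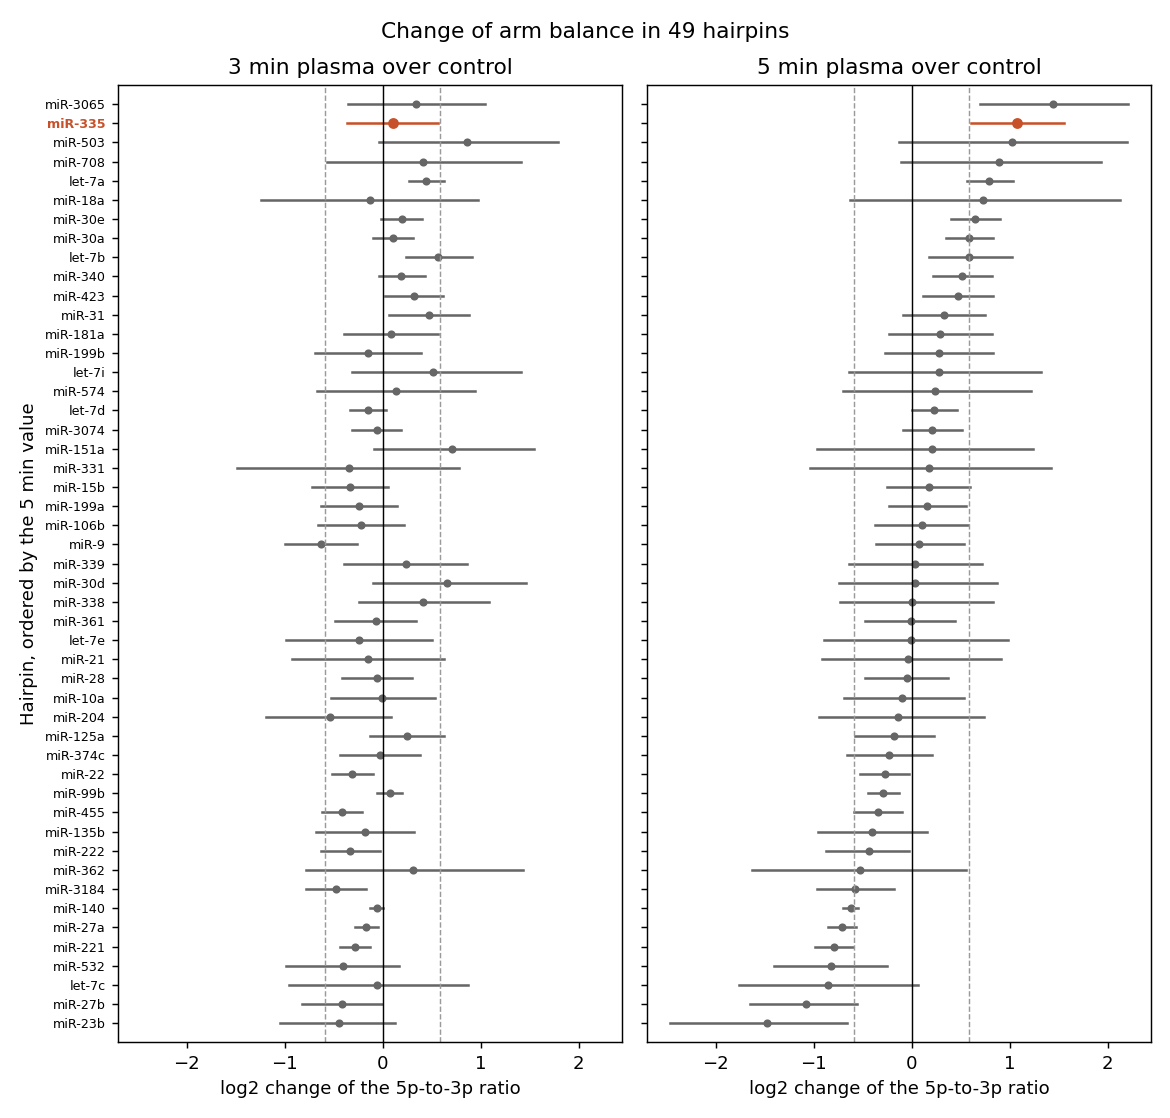
Change of the 5p-to-3p ratio against control (log2, 0.5 added to each count) for 49 hairpins after 3 min (left) and 5 min (right); lines are exact 95% conditional intervals and dashed lines mark 1.5-fold. MIR335, labelled miR-335 in orange, lies at 0.10 after 3 min and at 1.08 after 5 min, second from the top.

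The hairpin above MIR335 was MIR3065, whose balance lay 2.71-fold towards 5p after 5 min (1.62 to 4.60). Its 5p arm had 47, 58 and 59 counts and its 3p arm 126, 123 and 58. As in MIR335, the 5 min library had the most 5p counts and the fewest 3p counts of the 3. MIR3065 overlaps MIR338 on the opposite strand of chromosome 17, so its arms can carry reads of that hairpin if strand was ignored. Both hairpins are among the 49 and were counted apart. Elsewhere miR-3529-3p, antisense to miR-7, had 14868, 12149 and 8019 counts beside 14408, 10701 and 5489 of miR-7-5p. Other antisense pairs were not read for this. Overlaps were looked up only for MIR335, MIR3065 and MIR532, so others of the 49 hairpins may also carry reads of an opposite strand. MIR3065 itself is among the 38 with each arm from 1 hairpin, so that label does not cover such overlaps. The part of strand in the counts was not tested. The arms of MIR338, with 2188, 1962 and 942 counts of 5p and 52, 35 and 22 of 3p, had a ratio of 3p to 5p at 0.995 of control after 5 min (0.565 to 1.66).

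The arms of MIR3065 are printed to set their seeds, in capitals, beside those of MIR335.
miR-3065-5p: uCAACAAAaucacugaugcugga
miR-3065-3p: uCAGCACCaggauauuguuggag
No seed is shared with either MIR335 arm. Of the other 7 hairpins whose balance lay towards 5p by at least 1.5-fold, the 3 whose intervals lay farthest from 1 were let-7a at 1.73-fold (1.48 to 2.04), miR-30e at 1.57-fold (1.32 to 1.86) and miR-30a at 1.5-fold (1.28 to 1.77). The let-7a arms are made by several hairpins, so their balance is a sum over loci.

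Towards 3p the hairpins farthest from 1 were miR-23b at 2.78-fold (1.58 to 5.52), miR-221 at 1.73-fold (1.52 to 1.98), miR-27a at 1.64-fold (1.48 to 1.81), miR-27b at 2.11-fold (1.48 to 3.14) and miR-140 at 1.54-fold (1.46 to 1.63). In each of these the 5p arm is the minor one and its share was lower after 5 min, the opposite of MIR335. Of these, miR-221 was not matched to RefSeq. For miR-27b, for example, 5p counts were 125, 88 and 39 beside 36276, 34077 and 24137 of 3p.

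MIR335 was therefore compared with minor arms in general, the minor arm being the one with fewer counts over the 3 libraries. The 5p arm was minor in 22 of the 49 hairpins and the 3p arm in 27. After 5 min the ratio of minor to major arm was higher than in the control in 24 hairpins and lower in 25, with a median log2 change of -0.01. It was at least 1.5-fold higher in 8 hairpins (16.3%), MIR335 among them, and at least 1.5-fold lower in 8 (16.3%). The median minor arm share was 9.66%, 10.2% and 9.16% in the control, 3 min and 5 min libraries, and MIR335, at 12.1%, 12.9% and 22.6%, went from 22nd to 21st to 12th highest of 49.

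Both arms of each hairpin were then set side by side. After 5 min both arms were above control in 13 hairpins and both below in 16; 5p was higher and 3p lower in 9, and the reverse held in 11. Arm intervals lay on opposite sides of 1 in 5 hairpins. In MIR335 the 5p arm was the one above (1 of 49, 2.04%), and in miR-27a, miR-27b, miR-221 and miR-140 (4 of 49, 8.16%) the 3p arm was. Of these, miR-27a and miR-27b were not counted under every scaling. Which hairpins are counted here depends on the scaling: MIR335 was counted under all 6 scalings tried, miR-30a joined it under 3 of them and MIR3065 under 2. After 3 min, let-7a had 5p above and 3p below (2.04%) and miR-9 and miR-455 the reverse (4.08%), which under 2 of the 6 scalings left miR-9 alone. MIR335 was not among them under any.

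**Figure D4:**
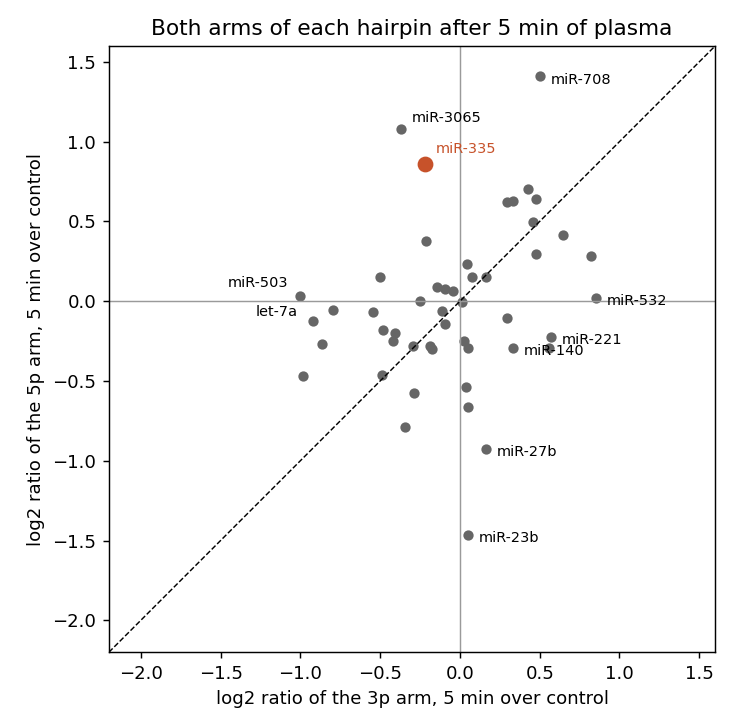
Log2 ratio of the 3p arm (horizontal) and the 5p arm (vertical), 5 min over control, for 49 hairpins, TMM-scaled; each point is a hairpin and the dashed line marks equal ratios. MIR335 (orange) lies at -0.22 for 3p and 0.86 for 5p, above the line, near miR-3065, while miR-23b and miR-27b lie below it.

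The 3 hairpins nearest to MIR335 in summed counts (1882 over the 3 libraries) show what balance does at like depth. miR-28 (1984 counts), like MIR335 a hairpin with a major 3p arm, had a 5p share of 22.1%, 21.4% and 21.5%. Its ratio after 5 min was 0.967 of control (0.717 to 1.29). It is 1 of the 7 hairpins not matched to RefSeq. miR-181a (1996 counts) had a 5p share of 87.5%, 88.1% and 89.6%, 1.22-fold from control (0.853 to 1.77), with arms that several hairpins can make. miR-532 (1792 counts) had a 5p share of 92.2%, 89.8% and 86.9%, 1.77-fold towards 3p after 5 min (1.19 to 2.65). Of these 3, miR-532 alone thus lay past counting error, and there too the minor arm was the higher one.

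The minor arm of miR-532 was also the miRNA nearest to miR-335-5p in pattern, by the distance between pairs of log2 ratios to control over the 3 libraries. miR-532-3p had 57, 61 and 61 counts and log2 ratios of 0.22 after 3 min and 0.85 after 5 min (distance 0.07). Next came miR-33a-5p, hosted in the cholesterol regulator gene SREBF2, with 22, 21 and 22 counts (0.06 and 0.75, distance 0.15), and miR-199b-5p with 61, 61 and 59 (0.13 and 0.70, distance 0.16). All 3, like miR-335-5p, had nearly level raw counts. Their 5 min ratios to control were 1.80 (1.24 to 2.63), 1.685 (0.890 to 3.19) and 1.63 (1.12 to 2.37) in the same order. The distances are smaller than this counting error, so the order of the 3 is not resolved. The arms of MIR532 (X chromosome) are printed because its minor arm had the smallest distance, again with seeds in capitals. Their GC shares, 54.5% for 5p and 63.6% for 3p, are well above those of MIR335.
miR-532-5p: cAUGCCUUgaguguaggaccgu
miR-532-3p: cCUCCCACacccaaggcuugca

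Nearest to miR-335-3p were miR-30a-3p with 515, 472 and 264 counts (0.00 after 3 min and -0.21 after 5 min, distance 0.06), let-7b-5p with 10782, 9964 and 5314 (0.01 and -0.27, distance 0.07) and miR-28-5p with 173, 165 and 93 (0.06 and -0.14, distance 0.08). Their raw counts went down with the depth of the library, as those of miR-335-3p did. A likeness over 3 libraries is a description only.

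Neighbours of MIR335 on chromosome 7 did not share 1 pattern. The nearest RefSeq hairpins within 1 Mb with counts were MIR29A and MIR29B1, 381 kb away on the minus strand, whose miR-29 products repress collagen and other matrix mRNAs. miR-29a-3p had 11660, 13661 and 11185 counts, with a ratio to control of 1.28 for 3 min (1.25 to 1.31) and 1.62 for 5 min (1.57 to 1.66). miR-29b-1-5p, the passenger arm of MIR29B1, had 41, 30 and 11 counts, a ratio of 0.452 after 5 min (0.210 to 0.896). Of the 9 measured miRNAs of a list for 7q, 1 was at least 1.5-fold higher after 5 min and 3 lower, beside 17.3% and 11.7% of all 231 miRNAs. The list's median log2 ratio was -0.04 against 0.05 for all. The second most abundant of that list, miR-25-3p, of the cluster in MCM7, had 4013, 3594 and 2140 counts and a ratio of 0.899 (0.852 to 0.947). Some miRNAs of this list, miR-29b-3p and miR-129-5p among them, are also made on other chromosomes.

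On a list drawn up for imprinted loci outside chromosome 14, MIR335 held most of the counts. Whether each listed miRNA is imprinted in these cells was not checked. The list had 78 entries, 16 with a count and 3 past the minimum: both MIR335 arms and miR-184, which had 22, 36 and 23 counts and a ratio to control of 1.79 in the 3 min library (1.02 to 3.19) and 1.76 in the 5 min library (0.939 to 3.31). The other 13 with a count, most of them from the chromosome 19 cluster, added 8, 20 and 13 counts in all. Of the list of metastasis-linked miRNAs, 9 of 21 were measured, 4 were at least 1.5-fold higher after 5 min and 0 lower, beside 17.3% and 11.7% of all 231 miRNAs. The list's median log2 ratio was 0.25, and 0.20 without miR-335-5p, which was chosen because the MIR335 arms part at 5 min. The 4 were miR-335-5p, miR-31-5p at 1.54-fold (1.43 to 1.66), miR-30b-5p at 1.61-fold (1.39 to 1.86) and miR-199a-5p at 1.56-fold (1.19 to 2.04), the last 3 named after their values were seen. The most abundant 2, the oncogenic miR-21-5p and the neural miR-9-5p, stood at 0.996 (0.990 to 1.001) and 1.11 (1.09 to 1.14). These lists were drawn up with results of the libraries known and are given as counts.

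The label of a melanoma line was checked against miRNAs of pigment cells. miR-204-5p had 2608, 2535 and 1257 counts and miR-211-5p, made from an intron of the melanocyte gene TRPM1, 128, 97 and 65, while the listed miRNAs of the miR-506 to miR-514 cluster had 3 counts in the control and 0 in both treated libraries. MIR335 is also expressed in mesenchymal cells, so their markers were read beside it. The 6 fibroblast markers summed to 4174, 5236 and 5833 CPM. Of the 4 that passed the minimum, 2 were at least 1.5-fold higher after 5 min and 0 lower, beside 17.3% and 11.7% of all 231 miRNAs. The 2 were miR-199a-5p at 1.56-fold (1.19 to 2.04) and miR-199b-5p at 1.63-fold (1.12 to 2.37), both of the miR-199 family. The others were miR-199a-3p at 1.39-fold (1.33 to 1.46) and miR-143-3p at 1.17-fold (0.824 to 1.65). The sum rested on miR-199a-3p, with 4098, 4729 and 3392 counts, followed by miR-199a-5p, while miR-145-5p had 1, 2 and 0 counts and miR-214-3p 1, 1 and 0. The sum leaves out miR-199b-3p, which is not on the marker list. It had 2073, 2303 and 1653 counts and was 1.34-fold above control after 5 min (1.26 to 1.43). Summed counts were 10, 17 and 10 for blood, led by miR-451a and miR-486-5p, and 15, 24 and 40 for epithelial markers, led by miR-200b-3p and miR-200c-3p. They were 1, 3 and 15 for muscle (miR-1-3p, with miR-133a-3p at 1, 0 and 0), 327, 327 and 233 for endothelium (miR-126-3p and miR-126-5p) and 114, 117 and 76 for liver (miR-122-5p). The part of other cell types in the MIR335 values was not tested.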

How the data were processed

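Small RNA of 3 SK-MEL-2 libraries was measured with a NEBNext small-RNA kit from Trizol-extracted total RNA, per the labels' protocols. The authors deposited whole-number read counts per mature miRNA. Bowtie2, bedtools and edgeR are named in the submitters' processing notes with no version or role; genome build, miRNA annotation, trimming, multiple mapping and strandedness: not given in the sources used here. No molecular identifiers were counted, so PCR copies enter the counts and intervals cover counting error only. A count of 1 was worth 0.957, 1.03 and 1.62 CPM in the control, 3 min and 5 min libraries.

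Counts were scaled by TMM (edgeR 4.0.16, R 4.3.3) over 231 miRNAs whose mean count reached 20, with factors relative to the library totals of 0.991 for 3 min and 1.01 for 5 min. Ratios carry exact Clopper-Pearson 95% intervals of the split of counts between 2 libraries, levels carry exact Poisson intervals, and arm balances carry exact conditional intervals of the odds ratio, with 0.5 added to each count for the estimate. Arms were paired by name and checked against RefSeq, where 7 of the 49 hairpins were not matched and were kept. The ratio and arm balance intervals were checked on simulated Poisson counts scaled by library totals. That check had no further variation between libraries and did not run the TMM scaling. The hairpin was folded with RNAfold 2.7.2. Intervals were computed with scipy 1.17.1 in Python 3.11.15. Alternatives were 5 other scalings (DESeq2 1.42.0 among them), other count minimums, hairpins with mature sequences from 1 locus only, and no added count.

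Named beside the members were the 3 miRNAs nearest to each in log2 ratios, the 3 hairpins nearest in counts, up to 5 hairpins per direction whose arm balance interval lay farthest from 1, and the 2 most abundant miRNAs of each list or marker list, while others were chosen after their values were seen. The members and lists were chosen with earlier results of these data known.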

Additional observations from a re-analysis of the deposited data

How the results depend on the processing

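No paired analysis was possible because each group had 1 library, and for the same reason no replicate could be left out. The arm balance of MIR335 does not depend on scaling; with nothing added to the counts its log2 change after 5 min was 1.08, as before. Across the 6 scalings the log2 ratio of miR-335-5p after 5 min ran from 0.65 to 0.87, that of miR-335-3p from -0.43 to -0.21 and that of both arms from -0.24 to -0.02, so no 5 min direction changed. DESeq2 size factors over all miRNAs counted in every library gave the lowest values, -0.43 for miR-335-3p and -0.24 for the sum, and 42 miRNAs at least 1.5-fold lower; this scaling moved the median of all miRNAs after 5 min by -0.21, and TMM over all listed miRNAs moved it by -0.17. After 3 min the sign of miR-335-3p changed with scaling (-0.02 to 0.06), as did that of the sum (-0.01 to 0.07).

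The background counts depend on the count minimum, since fewer or more features are counted. At 1.5-fold, minimums of 5 and 50 gave 95 and 25 miRNAs higher and 49 and 16 lower after 5 min. After 3 min they gave 46 and 7 higher and 33 and 3 lower. With no minimum, 0.5 was added to each count of the 965 miRNAs with a count in some library. This gave 520 higher and 204 lower after 5 min, and 255 higher and 205 lower after 3 min. Equal counts in the control and 5 min libraries scale to a ratio of 1.685, so at low counts depth alone can pass 1.5-fold. With an arm minimum of 10, 5 hairpins were at least 1.5-fold higher and 3 lower after 3 min, 7 were at least 2-fold higher after 5 min and 8 at least 1.5-fold higher against the 3 min library. With a minimum of 50, 0 hairpins were 1.5-fold higher after 3 min, 1 was 2-fold lower after 5 min and 1 was 1.5-fold lower against 3 min. A minimum of 100 leaves MIR335 out; 0 were then 1.5-fold higher after 3 min, 4 higher and 3 lower after 5 min, 0 past 2-fold in either direction, and 1 higher and 0 lower against 3 min. With sequences from 1 locus only, 1 was higher and 0 lower after 3 min. By the change of arm balance from control to 5 min, MIR335 ranked 6th from the highest of 61 hairpins with a minimum of 10, 2nd of 34 with 50 and 2nd of 38 with sequences from 1 locus. With a minimum of 50 counts only the 2 MIR335 arms remained of the imprinted list. Its median of 0.32 after 5 min is thus set by the values that chose the hairpin. With the minimum of 20 it was 0.82, the value of miR-184. The median of the metastasis-linked list after 5 min was 0.62 with a minimum of 5 or with none. The 90 to 97 counts of 5p limit the precision of the 5p ratios and of the arm balance.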

Other observations

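Base composition and length of the arms were read beside the ratios as a description. Of the 206 measured miRNAs with a sequence, 3 had a lower GC share than the 5p arm and 25 a lower one than the 3p arm. Of the 36 miRNAs with a GC share no higher than that of miR-335-3p, 7 were at least 1.5-fold higher after 5 min and 3 at least 1.5-fold lower, beside 17.3% and 11.7% of all 231. Their median log2 ratio was 0.02 against 0.05 for all. Across these 206 miRNAs Spearman's rho between GC share and the 5 min log2 ratio was -0.09, and with length it was -0.01. Across the 42 hairpins with both sequences, rho between the GC difference of the arms (5p minus 3p) and the change of their balance after 5 min was -0.14, and with the length difference -0.17. miRNAs and hairpins of 1 library share its depth and preparation and are not independent, so these values carry no test.

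Of the other RefSeq hairpins within 1 Mb, miR-182-5p of MIR182, 726 kb from MIR335 on the other side, had 4, 5 and 15 counts, and miR-96-5p beside it 0, 1 and 2. Both were under the count minimum. miR-182-5p, which is known to be raised in melanoma, was 6.32-fold higher after 5 min with an interval of 2.01 to 26.2, and was named after its values were seen.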
